A study of Mus musculus with 38 samples.

Results

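The chaperonin CCT (also called TRiC) is built from 8 paralogous subunits, encoded in the mouse by Tcp1 (the α subunit), Cct2 (β), Cct3 (γ), Cct4 (δ), Cct5 (ε), Cct6a (ζ), Cct7 (η) and Cct8 (θ). These 8 genes were taken by symbol from the 23125 genes of the deposited table, and each had 1 row. Of the 8, 7 passed the minimum level for testing, 0.1 FPKM as the geometric mean of all libraries, as did 7967 genes in all. Cct6a, at a geometric mean of 0.0284 FPKM, did not pass and is described without a test.

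CCT is a double ring in the cytosol, in which each ring holds one copy of every subunit and closes over a newly made protein with the use of ATP. Its best known clients are actin and tubulin, and it also folds WD40 proteins such as CDC20 and FZR1, the activators of the anaphase-promoting complex. Prefoldin hands it unfolded chains, and phosducin-like proteins and the tubulin cofactors act with or after it. Since the ring needs all of its subunits, the mRNA of each of them bears on how much of the complex a cell can assemble.

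RNA was sequenced from polysomes, the fractions in which mRNAs carry several ribosomes, and from the lighter, non-polysome part of the same kind of gradient. The cells were oocytes and early embryos of ICR mice, all taken from hormone-stimulated females, and the oocyte donors were at least 6 weeks old. GV oocytes (germinal vesicle, meiotic prophase) were collected in a medium with IBMX, which holds them in prophase, and MII oocytes (metaphase of the second meiosis) were obtained by culture without it for 12 h. Zygotes in interphase were taken from the oviducts of mated females after 16 h and collected at once, two-cell embryos grew from zygotes in culture, and embryos of the M-phase groups (zygote M and two-cell M) had been treated with 10 µM nocodazole, a drug that depolymerizes microtubules. Nocodazole was given in neither oocyte group, so in the embryos M-phase and the drug cannot be told apart. Lysates of cells treated with cycloheximide were run on a sucrose gradient, 10 fractions were collected, and 5 were pooled for each kind of sample. Each of the 12 groups had 3 libraries, which the study calls biological replicates. The labels do not say whether they came from separate animals. The labels give the M-phase embryo samples as meiotic, which is at odds with their stage, and they are called M-phase here.

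The libraries were estimated to hold 8491000 to 26660000 fragments, and 26.2% to 63.1% of the genes were at the lowest value of the table, 0.01 FPKM, in a given library. An FPKM is a share of its own library, so neither a change in the total amount of polysomal RNA nor the number of ribosomes on a message is visible in it. In RNA from pooled cells, fewer cells with a message and less of it in each cell cannot be told apart. Of the marker lists, the 9 oocyte genes summed to 5553 to 7638 FPKM in GV polysomes and to 48.5 to 203 FPKM in two-cell M polysomes, and the 7 cumulus or granulosa genes in the table summed to at most 23.6 FPKM outside polysomes in MII, 20.1 FPKM outside them in two-cell and 4.73 FPKM elsewhere, with Has2 and Tnfaip6 at the lowest value in nearly all groups. The 4 globin genes in the table summed to at most 1.33 FPKM in oocyte and zygote libraries but to 34.3 to 83.7 FPKM in two-cell polysomes to 24.4 to 42.5 FPKM in two-cell M polysomes to 99.7 to 162 FPKM in the two-cell non-polysome libraries and to 0.04 to 52.6 FPKM in those of two-cell M. The part of these genes in the values given below was not tested.

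The positions of the 8 genes in the table are those of GRCm38. Tcp1 is on chromosome 17 (12915701 to 12925068, plus strand), Cct2 on chromosome 10 (117051001 to 117063815, minus), Cct3 on chromosome 3 (88297116 to 88321768, plus) and Cct4 on chromosome 11 (22990519 to 23003781, plus). Cct5 is on chromosome 15 (31590800 to 31601805, minus), Cct6a on chromosome 5 (129786998 to 129846372, plus), Cct7 on chromosome 6 (85451514 to 85468476, plus) and Cct8 on chromosome 16 (87483326 to 87495874, minus), so no 2 members are neighbours. In 4 of them an exon is shared in part with a gene on the other strand. The longest such stretch is 571 bases for Tcp1 (against Mrpl18 or Acat3), 452 for Cct6a (against Psph), 214 for Cct7 (against Pradc1) and 192 for Cct8 (against Usp16). The library kit is not stated to keep the strand, so reads of these stretches could belong to either gene.

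Because oocyte and embryo mRNAs are stored and recruited with changes of their poly(A) tails, and because the libraries were primed on poly(A), the 3′ ends of the members were read from the GENCODE M21 transcripts of GRCm38. The last 100 bases of 1 transcript per gene were searched on the transcript strand for the polyadenylation hexamer AATAAA or ATTAAA and for TTTTAT or TTTTAAT, the letters bound by the cytoplasmic polyadenylation factor CPEB. The 30 bases around the hexamer are printed below for 5 of the 6 members that have one, with every copy of the hexamer in capitals.
Tcp1 (chr17:12925031-12925060, plus strand): ctctaactcagaAATAAAtctgcctgcctt
Cct2 (chr10:117051007-117051036, minus strand): actgtgtATTAAAATAAAaatccagttact
Cct3 (chr3:88321736-88321765, plus strand): ttgcttccaatgATTAAAtctaagtcattt
Cct5 (chr15:31590817-31590846, minus strand): tgtagatgctggAATAAAagcagctgtctg
Cct8 (chr16:87483337-87483366, minus strand): tgtatttaAATAAATAAAcatgattttttt
In Cct2 both forms overlap, and in Cct8 copies of AATAAA overlap. Cct4 and Cct7 had neither form in the window. Over 21747 transcripts searched in the same way, 74.2% held AATAAA or ATTAAA, and 16.5% held TTTTAT or TTTTAAT, which 0 of the 8 members did. A match is a match of letters and not a proven site, and the window does not cover the rest of the 3′ UTR.

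The members differed widely in level, and Cct5 in MII oocytes stood above all others. In polysomes Cct5, the ε subunit, was at 98.6, 51.2 and 97.5 FPKM in the 3 MII libraries, at 7.08, 2.77 and 12.8 FPKM in GV, at 12.6, 13.9 and 14.1 FPKM in zygote and at 1.98, 1.71 and 1.13 FPKM in zygote M. Its MII libraries lay above all other polysome libraries, and its zygote M libraries lay below all zygote and oocyte libraries. In two-cell it was at 3.04, 1.92 and 1.90 FPKM, and in two-cell M at 2.77, 7.43 and 5.00 FPKM, where the groups overlapped. Between the group with the highest and that with the lowest geometric mean, MII and zygote M, the ratio was 50.4, or 42.8 to 62.5 with 1 library left out. About 1967 to 3829 fragments stood behind the MII values and about 51 to 77 behind those of zygote M.

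**Figure D1:**
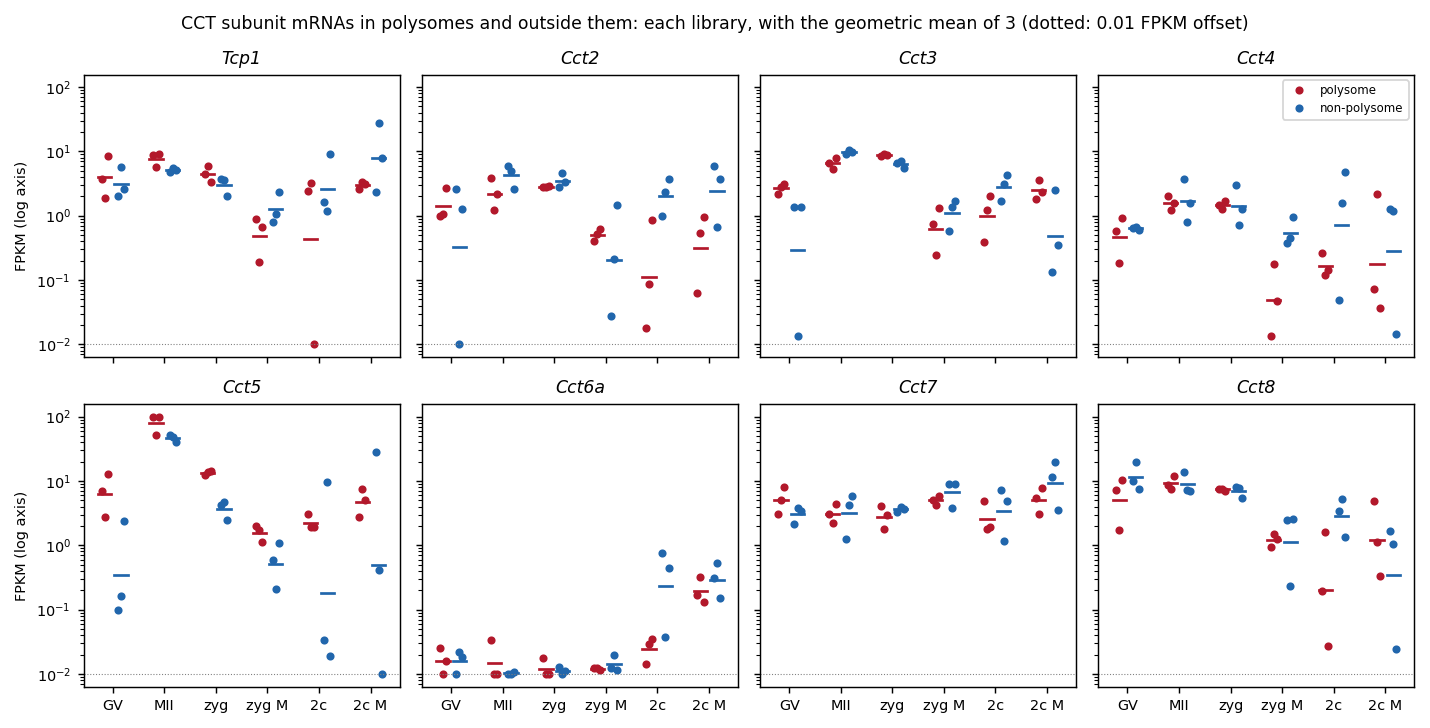
FPKM (log axis) of each CCT subunit mRNA in every library, by stage (zyg, zygote; 2c, two-cell), in polysomes (red) and outside them (blue). Each point is 1 library and each bar the geometric mean of 3. Cct5 reaches 51.2 to 98.6 FPKM in MII polysomes, Cct7 stays within 1.76 to 7.99 FPKM in all polysome libraries, and Cct6a lies near the lowest value outside the two-cell groups.

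Cct3, the γ subunit, was highest in zygote rather than in MII. It was at 2.17, 2.76 and 3.14 FPKM in GV polysomes, at 6.47, 5.29 and 7.88 FPKM in MII, at 8.57, 9.02 and 8.74 FPKM in zygote and at 0.746, 0.247 and 1.30 FPKM in zygote M. The zygote libraries were the highest, MII lay between zygote and GV without overlap, and zygote M lay below all of these. In two-cell it was at 0.394, 1.21 and 2.05 FPKM and in two-cell M at 1.81, 3.64 and 2.34 FPKM, 2 overlapping groups.

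Cct8, the θ subunit, was the second most abundant member in GV and MII polysomes. Its values were 7.29, 1.74 and 10.2 FPKM in GV, 8.78, 7.49 and 11.8 FPKM in MII, 7.45, 7.63 and 7.05 FPKM in zygote and 0.927, 1.51 and 1.27 FPKM in zygote M. The first 3 groups overlapped one another, and zygote M lay below every one of their libraries. In two-cell polysomes Cct8 was at 0.194, 1.64 and 0.0267 FPKM and in two-cell M at 4.87, 1.12 and 0.331 FPKM, a spread of about 1 to 82 fragments in the first group.

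Tcp1, the α subunit, was at 3.76, 1.88 and 8.53 FPKM in GV, at 8.71, 5.69 and 9.02 FPKM in MII, at 4.49, 5.84 and 3.34 FPKM in zygote and at 0.884, 0.187 and 0.654 FPKM in zygote M. Again all zygote M libraries lay below those of the 3 earlier groups. In two-cell polysomes 2 libraries held 2.41 and 3.24 FPKM while replicate C was at the lowest value of the table, 0.01, and in two-cell M all 3 lay between 2.63 and 3.29 FPKM. Without that library the two-cell mean of Tcp1 would lie within the range of two-cell M.

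Cct2 (β) and Cct4 (δ) had the lowest mean FPKM of the 7 tested members in GV, MII, zygote and zygote M polysomes. Cct2 was at 1.001, 1.06 and 2.70 FPKM in GV, 3.79, 1.21 and 2.13 in MII, 2.78, 2.80 and 2.87 in zygote, and 0.397, 0.521 and 0.614 in zygote M. Cct4 was at 0.570, 0.181 and 0.932 FPKM in GV, 2.05, 1.24 and 1.55 in MII, 1.46, 1.28 and 1.69 in zygote, and 0.0136, 0.178 and 0.0466 in zygote M. For both, no zygote M library reached the lowest library of GV, MII or zygote, and for Cct4 the zygote M values correspond to about 0 to 9 fragments. In the two-cell groups Cct2 ranged from 0.0176 to 0.937 FPKM and Cct4 from 0.0372 to 2.18 FPKM, with the high value of Cct4 in two-cell M replicate B alone.

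Cct7, the η subunit, did not follow the others. It was at 3.11, 5.03 and 7.99 FPKM in GV polysomes, 3.06, 2.24 and 4.36 in MII, 4.05, 1.82 and 2.94 in zygote, 4.97, 4.26 and 5.92 in zygote M, 4.86, 1.76 and 1.95 in two-cell, and 5.41, 3.11 and 7.71 in two-cell M. Of the 5 pairs of stages that follow each other in the order of its geometric means, 0 were separated by a gap between the groups. This was also so for Cct8, while Tcp1, Cct2, Cct4 and Cct5 had 1 such gap each and Cct3 had 2. The highest group of Cct7 stood 1.98 times above the lowest. The corresponding ratio was 14.1 for Cct3, 17.9 for Tcp1, 25.8 for Cct2, 32.7 for Cct4 and 45.2 for Cct8. These ratios moved with single libraries of the lowest group. With 1 two-cell library left out, that of Cct8 was 16.4 (without replicate C) or 128 (without B), that of Cct2 10.3 (without A) or 71.6 (without C), and that of Tcp1 42.5 (without A) or 49.2 (without B). With 1 zygote M library left out, that of Cct4 was 17.3 (without A) or 62.7 (without B) and that of Cct3 8.91 (without B).

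Cct6a, the ζ subunit, was listed at 0.01 to 0.0347 FPKM in every polysome library other than those of two-cell M. In two-cell M polysomes it was at 0.171, 0.317 and 0.130 FPKM, above every other polysome library, and in the non-polysome fraction it was at 0.754, 0.0380 and 0.440 FPKM in two-cell, against 0.307, 0.522 and 0.150 FPKM in two-cell M. These correspond to no more than about 35 fragments. Of the 7 GENCODE M21 transcripts of Cct6a, 0 are annotated as protein-coding, and the table gives the gene as a processed transcript, so these values need not stand for the level of the coding message.

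The summed level of the 8 members in polysomes was highest in MII, with 74.4 to 134 FPKM, against 15.4 to 46.3 FPKM in GV, 40.8 to 42.3 FPKM in zygote, 8.62 to 10.9 FPKM in zygote M, 6.95 to 11.2 FPKM in two-cell and 17.8 to 21.6 FPKM in two-cell M. The makeup of the sum changed as well. Cct5 alone gave 68.9% to 75.0% of it in MII polysomes and 18.0% to 28.3% in GV. Without Cct5 the sums of MII (23.2 to 36.8 FPKM) overlapped those of GV (12.7 to 33.5 FPKM) and of zygote (26.6 to 28.8 FPKM), while zygote M (6.91 to 9.81 FPKM) stayed below all 3. In zygote M Cct7 made up 49.4% to 54.1% of the sum, against 4.30% to 9.79% in zygote. No test was made on the sum, since the members had been chosen with results known.

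**Figure D2:**
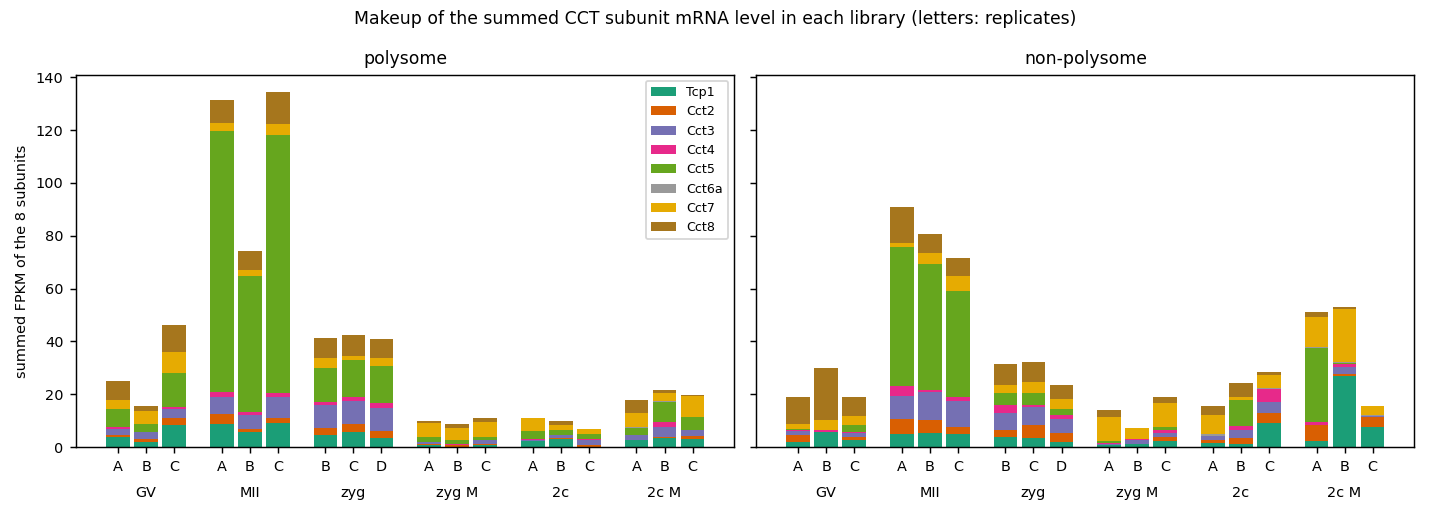
Summed FPKM of the 8 subunit mRNAs in each library (bars; letters are replicates), split by subunit, in polysomes (left) and outside them (right). The 3 MII bars are the tallest in polysomes, at 74.4 to 134 FPKM, and most of their height is Cct5. In zygote M polysomes Cct7 makes up 49.4% to 54.1% of the bars.

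The finished complex holds its subunits in equal numbers, and the spread between their mRNAs was measured as well. Within a library the SD of log2 FPKM over the 7 tested members was 1.14 ± 0.122 (SD, n = 3) in zygote polysomes, 1.43 ± 0.102 in GV and 1.89 ± 0.0718 in MII, and it was 2.20 ± 0.449 in zygote M, 2.71 ± 0.576 in two-cell, then 2.23 ± 0.862 in two-cell M. The highest member exceeded the lowest 8.38 to 10.8 times in zygote polysomes and 42.4 to 63.0 times in MII. In GV it exceeded the lowest 12.8 to 27.8 times and in the 3 later groups 13.7 to 367 times, with the lowest member at few or no fragments in some libraries.

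The comparison of each M-phase with its interphase asks whether the subunits move the same way in meiosis and in both mitoses. A gene was called when limma gave an adjusted p under 0.05 with a fold change beyond 2, and log2 fold changes are differences of mean log2 FPKM. In MII against GV polysomes 6 of the 7 fold changes were positive, but 0 members were called (0 also at an unadjusted p under 0.05), where 3.36% of all genes tested were called higher and 2.75% lower. Cct5 had the largest value, a log2 fold change of 3.65 (SE 1.84, adjusted p = 0.299), Cct4 was at 1.78 (SE 1.52, adjusted p = 0.605) and Cct3 at 1.28 (SE 1.15, adjusted p = 0.633). The MII libraries lay wholly above the GV libraries for Cct3, Cct4 and Cct5, which held for 27.3% of all genes tested. The median over the members was 0.96, and over all genes tested 0.18. Fitted with the libraries of these 2 groups only, Cct3 and Cct5 were called higher, as were 16.1% of all genes tested in that fit.

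In zygote M against zygote polysomes 6 of the 7 members lay wholly lower, against 37.2% of all genes tested, and Cct7 lay wholly higher, against 19.4%. With limma 1 of the 7 was called lower, against 2.51% of all genes tested. This was Cct3, which fell by 3.82 on the log2 scale (SE 1.15, adjusted p = 0.0443). Cct4 was at -4.92 (SE 1.52, adjusted p = 0.0507), Tcp1 at -3.22 (SE 1.30, adjusted p = 0.176) and Cct5 at -3.11 (SE 1.84, adjusted p = 0.454). Cct8 was at -2.61 (adjusted p = 0.320), Cct2 at -2.49 (adjusted p = 0.479) and Cct7 at 0.84 (adjusted p = 0.703). The median of the members was -3.11, while that of all genes tested was -0.43. The number called was 0 with no minimum on the level, 0 with a replicate block and 6 in a fit of these 2 groups alone, in which 21.7% of all genes tested were called lower. In polysomes 26.2% to 27.3% of the genes were at the lowest value in zygote and 35.9% to 41.2% in zygote M, and the part of this in the result was not tested. Leaving out single libraries kept the call of Cct3 in 1 of 6 fits.

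In two-cell M against two-cell polysomes 7 of 7 fold changes were positive while the median of all genes tested was negative, at -1.17 against 1.33 for the members. With limma 0 members were called (1, Tcp1, at an unadjusted p under 0.05), where 8.13% of all genes tested were called higher and 28.1% lower. Tcp1 was at 2.81 (SE 1.30, adjusted p = 0.0921) and Cct8 at 2.58 (SE 1.29, adjusted p = 0.121), and the remaining 5 were at 0.11 (Cct4) to 1.53 (Cct2). The groups overlapped for all 7, while two-cell M lay wholly higher for 15.1% and wholly lower for 28.4% of all genes tested. Of the 3 two-cell libraries, replicate C held Tcp1 at the lowest value of the table, and without it the log2 fold change of Tcp1 was 0.11 (adjusted p = 0.951). Without replicate B, Tcp1 (4.27) and Cct8 (4.08) were called, and without replicate A, Tcp1 (4.06) was. The share of genes at that value was 41.7% to 45.4% in two-cell and 47.9% to 58.7% in two-cell M polysomes, and its part was not tested.

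**Figure D3:**
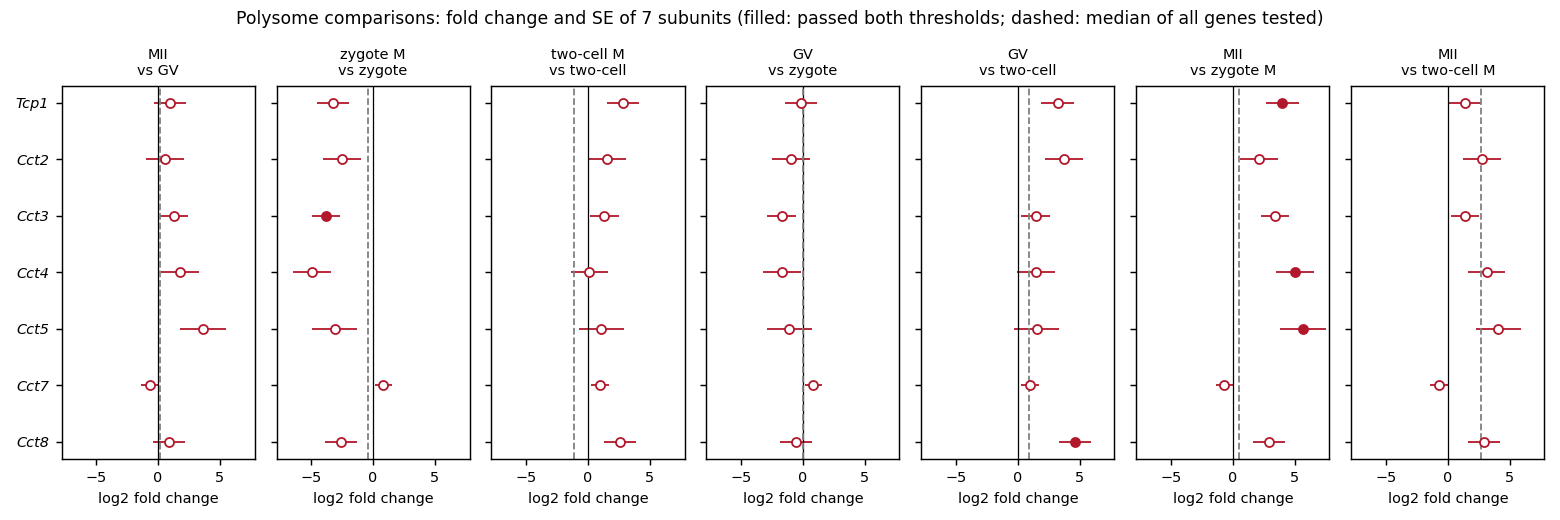
Log2 fold change with its SE (points and bars) of the 7 tested subunits in the 7 polysome comparisons, filled where adjusted p was under 0.05 and the fold change beyond 2. The dashed line is the median of all genes tested. In zygote M against zygote 6 subunits lie below that median and Cct7 above it. In two-cell M against two-cell all 7 lie above it.

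Whether the M-phase change differs between stages was tested as a difference of fold changes across all genes, a test added after the data had been seen. The change in MII against GV exceeded that in zygote M against zygote for Cct3, by 5.10 (SE 1.62, adjusted p = 0.0434), and for Cct4, by 6.71 (SE 2.14, adjusted p = 0.0446), so 2 of 7 members were called higher, where 5.06% of all genes tested were. Both calls were lost with no minimum on the level and with a replicate block, and with 1 library left out they held in 1 of 12 fits (Cct3) and 2 of 12 (Cct4). Cct5 had a difference of 6.75 (SE 2.60) that did not pass (adjusted p = 0.107), and Cct7 one of -1.53 (adjusted p = 0.398). The change in zygote M against zygote was lower than that in two-cell M against two-cell for 3 of 7 members, where 6.87% of all genes tested were called lower. These were Tcp1, with a difference of -6.03 (SE 1.84, adjusted p = 0.0177), Cct3, with -5.15 (SE 1.62, adjusted p = 0.0212), and Cct8, with -5.19 (SE 1.83, adjusted p = 0.0385). Without two-cell replicate C, where it was at the lowest value, Tcp1 was at -3.32 and did not pass (adjusted p = 0.0513). With 1 library left out Tcp1 and Cct3 passed in 10 of 12 fits each and Cct8 in 2 of 12, and Cct8 did not pass with no minimum on the level. In a fit of these 4 groups alone Cct3 and Cct5 were called and Tcp1 and Cct8 were not, where 11.2% of all genes tested were called lower. Between MII against GV and two-cell M against two-cell 0 members passed, also at an unadjusted p under 0.05, where 18.7% of all genes tested were called higher and 4.83% lower.

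The remaining polysome comparisons set the interphase groups and the M-phase groups against each other. In GV against zygote, 0 of 7 members were called by limma (0 at an unadjusted p under 0.05), where 3.88% of all genes tested were called higher and 1.73% lower. The fold changes ran from -1.72 (Cct3) to 0.84 (Cct7), and zygote lay wholly above GV for Cct2, Cct3 and Cct4, as for 27.0% of all genes tested. In GV against two-cell, 1 member was called higher, where 12.3% of all genes tested were. This was Cct8, with a log2 fold change of 4.63 (SE 1.29, adjusted p = 0.0132), and Cct2, at 3.70 (SE 1.53, adjusted p = 0.0961), and Tcp1, at 3.20 (SE 1.30, adjusted p = 0.0892), came next. Without two-cell replicate C, where Tcp1 was at the lowest value, its log2 fold change was 0.49 (adjusted p = 0.795), that of Cct2 was 5.17 (adjusted p = 0.0348) and that of Cct8 was 3.17 (adjusted p = 0.123). GV lay wholly above two-cell for Cct2, Cct3 and Cct8, as for 31.3% of all genes tested. The call of Cct8 was lost also without GV replicate A, without GV replicate C and in a fit of both groups alone (adjusted p = 0.0698), and Tcp1 was called without two-cell replicate A (4.45) or B (4.66). The two-cell group of these comparisons is the same as that of two-cell M against two-cell, and the zygote M group below the same as that of zygote M against zygote.

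In MII against zygote M polysomes 3 of 7 members were called higher, where 8.95% of all genes tested were. Cct5 was 5.65 higher on the log2 scale (SE 1.84, adjusted p = 0.0408), Cct4 was 5.03 higher (SE 1.52, adjusted p = 0.0262) and Tcp1 was 4.004 higher (SE 1.30, adjusted p = 0.0404). Cct3 was at 3.38 (adjusted p = 0.0507), Cct8 at 2.93 (adjusted p = 0.155), Cct2 at 2.09 (adjusted p = 0.470) and Cct7 at -0.69 (adjusted p = 0.645). The MII libraries lay wholly above those of zygote M for 6 members, Cct7 being the exception, and for 36.4% of all genes tested, and the median was 3.38 for the members and 0.46 for all genes tested. With single libraries left out, Cct4 was called in 1 of 6 fits and Cct5 and Tcp1 in 0 of 6, at adjusted p of 0.0231 to 0.142, 0.0801 to 0.116 and 0.0560 to 0.190. With no minimum on the level and with a replicate block, Cct5 and Tcp1 were not called.

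In MII against two-cell M, a comparison in which 45.2% of all genes tested were called higher and 7.86% lower, 0 of 7 members were called with limma (3 at an unadjusted p under 0.05). MII lay wholly above two-cell M for 5 members, Tcp1, Cct2, Cct3, Cct5 and Cct8, and for 51.3% of all genes tested. Cct5 was at 4.08 (SE 1.84, adjusted p = 0.0627), Cct4 at 3.13 (SE 1.52, adjusted p = 0.0825) and Cct8 at 2.92 (SE 1.29, adjusted p = 0.0584). The median of the members, 2.76, was close to that of all genes tested, 2.64.

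Over all 6 stages, limma's F-test found a stage effect in polysomes for 4 of 7 members, Cct8 (adjusted p = 0.00384), Tcp1 (adjusted p = 0.0202), Cct4 (adjusted p = 0.0288) and Cct3 (adjusted p = 0.0295), and for 62.9% of all genes tested. Cct2 (adjusted p = 0.0559), Cct5 (adjusted p = 0.0824) and Cct7 (adjusted p = 0.570) did not pass. The share of members that passed, 4 of 7, was thus near that of all genes. The SD of log2 FPKM around the group means over all 36 libraries was 2.38 for Cct5, the largest of the members, 1.94 for Cct2, 1.91 for Cct4, 1.64 for Tcp1, 1.63 for Cct8, 1.42 for Cct3 and 0.81 for Cct7, and its median over all genes tested was 1.63. The large residual SD of Cct5 came with non-polysome values that spread from 0.01 to 28.0 FPKM within two-cell M.

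Outside polysomes Cct5 and Cct3 rose from GV to MII. Non-polysome Cct5 was at 0.1003, 0.164 and 2.38 FPKM in GV and at 52.6, 47.5 and 40.0 FPKM in MII, with no overlap. Non-polysome Cct3 was at 1.38, 0.0135 and 1.37 FPKM in GV and at 8.92, 10.5 and 9.72 FPKM in MII, again with no overlap. Both were called higher in MII against GV, by 7.09 on the log2 scale for Cct5 (SE 1.84, adjusted p = 0.00773) and by 5.04 for Cct3 (SE 1.15, adjusted p = 0.00281), so 2 of 7 members were called higher, where 13.5% of all genes tested were. The values of the same contrast in polysomes were 3.65 and 1.28, and the difference between the fractions did not pass (adjusted p = 0.880 for Cct5 and 0.571 for Cct3). Both remained called in 6 of 6 fits with a library left out, but in a fit of these 2 groups alone Cct5 was called and Cct3 was not (adjusted p = 0.0949). Without GV replicate B, at 0.0135 FPKM, the value of Cct3 dropped to 2.82. Cct4 also lay wholly higher in MII, as did 29.9% of all genes tested, but at 1.41 (adjusted p = 0.580) it did not pass.

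In zygote M against zygote outside polysomes 0 members were called with limma (2, Cct2 and Cct3, at an unadjusted p under 0.05), where 9.36% of all genes tested were called lower and 1.05% higher. Zygote M lay wholly lower for Cct2, Cct3, Cct5 and Cct8, and for 28.1% of all genes tested, and the median was -2.55 for the members and -0.87 for all genes tested. In two-cell M against two-cell outside polysomes 0 were called (2, Cct3 and Cct8, at an unadjusted p under 0.05), where 28.0% of all genes tested were called lower and 8.17% higher. The fold changes ran from -3.04 (Cct8) to 1.60 (Tcp1). The stage effect outside polysomes passed for Cct3 (adjusted p = 0.00107), Cct5 (adjusted p = 0.00291), Cct8 (adjusted p = 0.00576) and Cct2 (adjusted p = 0.0375), against 78.3% of all genes tested.

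The level in polysomes relative to the non-polysome fraction shows how a message was divided between the pools, as far as 2 separately scaled libraries can. In MII the mean log2 difference lay between -0.98 (Cct2) and 0.77 (Cct5), in zygote between -0.38 (Cct7) and 1.88 (Cct5), and 0 of 7 members were called in either stage with limma (0 at an unadjusted p under 0.05), where 0.753% and 1.38% of all genes tested were called. Cct5 was higher in polysomes in 3 of 3 pairs of libraries of the same letter in GV, MII, zygote and zygote M, and its polysome libraries lay wholly above the others in GV, zygote and zygote M, as did those of 19.9%, 15.8% and 13.1% of all genes tested. The polysome libraries of Cct3 also lay wholly above in GV and zygote, but wholly below in MII. Those of Tcp1 lay wholly above in MII, and those of Cct4 wholly below in zygote M. For the cases in MII and for Cct4 the share of all genes is not given here, so they cannot be compared with all genes tested. The difference of Cct5 was largest in GV, at 4.21 (SE 1.84), but did not pass (adjusted p = 0.198). In GV 0 members were called (2, Cct3 and Cct5, at an unadjusted p under 0.05) against 4.96% of all genes tested, and in zygote M 0 (1, Cct4, at -3.48) against 1.92%.

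**Figure D4:**
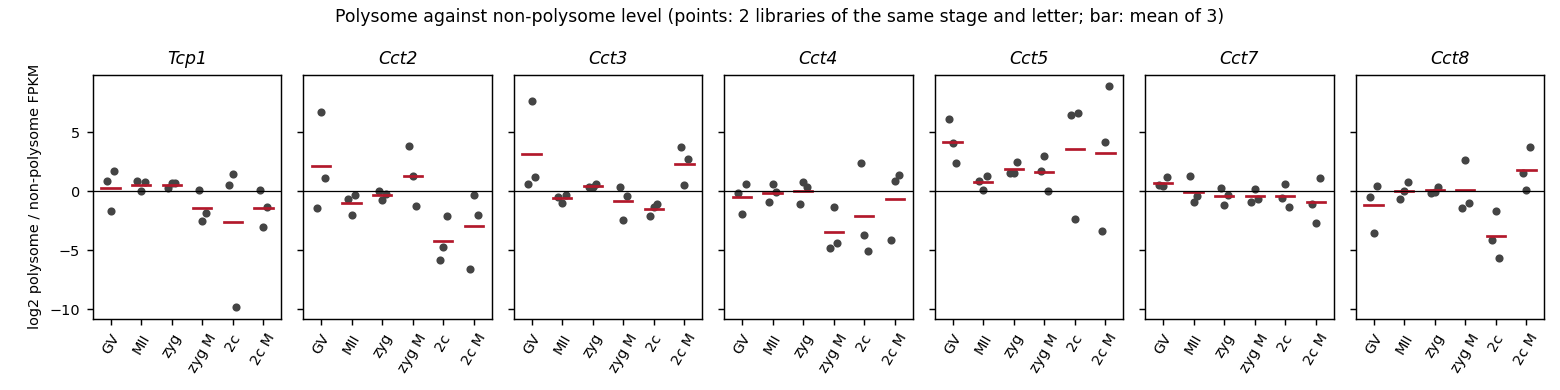
Log2 ratio of polysome to non-polysome FPKM of the 7 tested subunits by stage. Each point takes the 2 libraries of one stage and letter, and each bar is the mean of 3. The points of all 7 subunits spread more in two-cell than in zygote. Those of Cct5 are above 0 in every pair of the first 4 stages, at 1.55 to 2.52 in zygote.

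In two-cell embryos 6 of 7 differences were negative, the exception being Cct5 at 3.60, and 1 member was called lower in polysomes, where 6.38% of all genes tested were. This was Cct8, which was 3.41, 5.18 and 1.34 FPKM outside polysomes against 0.194, 1.64 and 0.0267 FPKM in them, a log2 difference of -3.82 (SE 1.29, adjusted p = 0.0422). It was lower in polysomes in 3 of 3 pairs, although the groups overlapped. Cct2 was at -4.22 (SE 1.53, adjusted p = 0.0580). Of the 7 tested members it alone had polysome libraries wholly below the others in two-cell, as had 15.7% of all genes tested. The untested Cct6a also lay wholly below, but its nearest libraries were at 0.0347 FPKM in polysomes and 0.0380 FPKM outside them. Each of these stands for about 1 fragment, so the gap is not a reliable one. In two-cell M 0 were called (1, Cct3, at 2.35, at an unadjusted p under 0.05) against 14.8% of all genes tested. The call of Cct8 in two-cell was kept in 2 of 6 fits with 1 library left out. It was lost with 1 FPKM added before log2, in a fit of both groups alone and with no minimum on the level, where Cct6a was called lower in its place.

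Whether an M-phase change differed between the 2 fractions was tested by an interaction. With limma 0 of 7 members passed in any of the 3 transitions, where 0.163% of all genes tested passed for MII against GV, 0.289% for zygote M against zygote and 5.75% for the two-cell transition. At an unadjusted p under 0.05 there was 1 member in the first (Cct3, at -3.76), 0 in the second and 2 in the third (Cct8, at 5.62 with adjusted p = 0.0672, and Cct3, at 3.84). With the fractions of one stage and letter paired as one gradient, Cct8 passed in the third (adjusted p = 0.0293), as did 5.32% of all genes tested, and 0 members passed in the others. In zygote M against zygote the interaction of Cct8 was 0.00 (SE 1.83), its change being -2.61 in both fractions.

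Across the 12 group means of log2 FPKM, each member was set against the mean of the other 7. Pearson's r was 0.77 for Tcp1, 0.77 for Cct2, 0.75 for Cct3, 0.71 for Cct4, 0.54 for Cct8, 0.43 for Cct5, -0.29 for Cct7 and -0.30 for Cct6a, as a description of 12 groups that share stages and library scaling. The highest values between single members were 0.75 for Cct3 with Cct5, 0.73 for Tcp1 with Cct2 and 0.73 for Cct4 with Cct8. Cct7 was negative with Cct2, Cct3, Cct4, Cct5 and Cct8. The 5 genes outside the family whose group means were most like the mean of the 8 members were Snupn (r = 0.95), which brings spliceosomal snRNPs into the nucleus, Kif22 (r = 0.94), a chromosome-arm kinesin, Cnbd2 (r = 0.94), Iars (r = 0.92), an aminoacyl-tRNA synthetase, and Gmps (r = 0.91), an enzyme of guanine nucleotide synthesis.

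The genes that work with CCT were taken from lists of 61 genes, of which 58 were in the table and 48 passed the minimum. Of the 6 prefoldin subunits, 1 was called lower in MII against GV, where 2.75% of all genes tested were. In zygote M against zygote 0 were called in either direction, where 3.24% of all genes tested were called higher and 2.51% lower. Between two-cell M and two-cell 1 was called higher, where 8.13% of all genes tested were. Pfdn5 was at 90.3 ± 28.7 FPKM (SD, n = 3) in GV and at 13.7 ± 1.15 FPKM in MII polysomes (log2 fold change -2.67, adjusted p = 6.44e-05). Pfdn6 was at 6.91 ± 4.15 FPKM in two-cell and 120.0 ± 25.8 FPKM in two-cell M (log2 fold change 4.28, adjusted p = 0.000435). In MII against zygote M, where Tcp1, Cct4 and Cct5 were higher, 1 of the 6 prefoldin subunits was called lower and 0 higher. Of all genes tested, 3.40% were called lower and 8.95% higher. The prefoldin gene called was Pfdn5 (-2.01, adjusted p = 0.00107), while the median of the 6 was 1.53. Of 4 tested tubulin cofactors 1, Tbcb, was called higher (2.58, adjusted p = 0.00489), and their median was 2.23.

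Of the 13 tested actin and tubulin genes, 1 was called higher and 1 lower in zygote M against zygote polysomes, where 3.24% of all genes tested were called higher and 2.51% lower. Tubb4b, a β-tubulin, was at 572 ± 38.5 FPKM in zygote and 60.4 ± 20.3 FPKM in zygote M (-3.30, adjusted p = 0.00491), and Tubg1, the γ-tubulin of microtubule nucleation, was at 18.5 ± 1.14 and 70.6 ± 1.93 FPKM (1.94, adjusted p = 0.00891). The median of these client genes in that comparison was -1.19, between that of the CCT members (-3.11) and of all genes tested (-0.43). In MII against GV only Actb was called among them, lower, where 2.75% of all genes tested were called lower and 3.36% higher. Actb was at 602 ± 111 FPKM in GV and 45.9 ± 7.45 FPKM in MII (-3.71, adjusted p = 1.40e-05). At the two-cell M-phase 5 of the 13 client genes were called lower than in two-cell, where 28.1% of all genes tested were, among them Actg1 (-4.23), Tuba1a (-3.73) and Tubb3 (-3.64). In MII against two-cell M, 7 were called higher, where 45.2% of all genes tested were.

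Of the 11 tested WD40 and other client genes, 1 was called higher in each of the 3 M-phases, where 3.36%, 3.24% and 8.13% of all genes tested were, and 2 were called lower at the two-cell M-phase, where 28.1% were. The medians of the list were -0.16, -0.06 and -0.83. The gene called higher was each time Cdc20, the WD40 client whose protein starts anaphase. In polysomes it was at 5.03 ± 0.723 FPKM in GV and 141 ± 14.2 FPKM in MII, at 2.35 ± 0.903 in zygote and 166 ± 51.5 in zygote M, and at 27.4 ± 7.32 in two-cell, compared with 71.3 ± 13.3 in its M-phase. The log2 fold change was 4.81 in the oocyte (adjusted p = 8.98e-10), 6.16 in the zygote (adjusted p = 1.88e-12) and 1.39 for the later embryo (adjusted p = 0.00346). Fzr1, the related activator used in interphase, was 1 of the 2 called lower at the two-cell M-phase (-4.75, adjusted p = 0.00580).

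Among 9 tested cytosolic chaperones outside the family, 1 was called lower in zygote M against zygote and 3 higher in MII against zygote M, where 2.51% and 8.95% of all genes tested were. Hspa8, the constitutive HSC70, was at 19.9 ± 9.08 FPKM in MII and 0.138 ± 0.150 FPKM in zygote M polysomes (7.70, adjusted p = 0.000426). The medians of this list were -2.40 in zygote M against zygote and 3.26 in MII against zygote M, and those of the CCT members were -3.11 and 3.38. Of the mitochondrial chaperonin genes Hspd1 and Hspe1, 0 were called in either comparison. Of 2 tested phosducin-like genes 0 were called in both, and of 4 tubulin cofactors 0 in the first and 1 in the second. Of the CCT-like genes with a restricted role (Cct6b, Cct8l1, Mkks, Bbs10 and Bbs12), 1 was tested, with 0 calls in the 7 polysome comparisons.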

How the data were processed

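RNA of pooled oocytes or embryos from polysome and non-polysome gradient fractions was sequenced after poly(A)-primed cDNA synthesis (SMART-seq v4). The submitters' processing notes name Trim Galore 0.4.1, STAR 2.5.3a, Partek and GRCm38. The authors deposited 1 table of normalized FPKM for 36 of 38 samples, with 0.01 as the lowest value. The other 2 samples, both zygote, were not analysed here. No counts were used. The sequence of 1 member's 3′ end is not reported here. Depth was estimated from the step between low values of genes with 1 transcript, of which 32.0% to 46.4% lay within 0.02 of a whole number of fragments (4% for an even spread), so fragment numbers are approximate and no count test was run.

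Log2 FPKM of genes whose geometric mean reached 0.1 FPKM was fitted in limma 3.58.1 (R 4.3.3) with 12 group means and a mean-variance trend. P-values were adjusted by Benjamini-Hochberg over the 7967 genes. A gene was called at an adjusted p under 0.05 and a fold change beyond 2, and a difference of fold changes at the adjusted p alone. All tests were two-sided. Figures and summaries were made with Python 3.11.15, pandas 2.3.3, numpy 2.4.6 and matplotlib 3.10.9. The fit was tested on simulated data. The members and lists were chosen with earlier results of these data known. All members are named. Genes named from the lists were among the called genes with the largest changes, at most 3 per list and comparison and with a mean of at least 10 FPKM in a group. For some comparisons, such as MII against two-cell M, the called genes of the lists are not named. Cdc20 is named whatever its values, as are the 5 genes whose group means were most like those of the members. Alternatives were 0.1 or 1 FPKM added before log2, no minimum or 1 FPKM, quantile normalization, a replicate block, a fit of the compared groups alone and each library left out. The differences between stages were added after seeing the data.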

Additional observations from a re-analysis of the deposited data

Results flagged for a closer look

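The polysome M-phase change of some subunits differed between stages by a test of the difference itself, limma's contrast of 2 fold changes, chosen after seeing the data. The change in MII against GV was above that in zygote M against zygote by 5.10 for Cct3 (log2 scale, adjusted p = 0.0434) and by 6.71 for Cct4 (adjusted p = 0.0446). Of all genes tested 5.06% were called higher in this way. In MII against GV both lay wholly higher in 3 of 3 libraries, as did 27.3% of all genes tested. In zygote M against zygote both lay wholly lower in 3 of 3, as did 37.2% of all genes tested. These are the same libraries that the test used. With 1 library left out, the call of Cct3 was kept in 1 of 12 fits and that of Cct4 in 2 of 12. Both were lost with no minimum on the level and with a replicate block (adjusted p = 0.0739 for Cct3 and 0.0802 for Cct4).

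The change in zygote M against zygote was below that in two-cell M against two-cell by a difference of -5.15 for Cct3 (adjusted p = 0.0212), -5.19 for Cct8 (adjusted p = 0.0385) and -6.03 for Tcp1 (adjusted p = 0.0177). Of all genes tested 6.87% were called lower in this way. Cct3 and Tcp1 were kept in 10 of 12 fits with 1 library left out and Cct8 in 2 of 12, and without two-cell replicate C, where Tcp1 was at the lowest value, its difference was -3.32 and did not pass (adjusted p = 0.0513). Both sets of differences use the same zygote and zygote M libraries. Nocodazole was used in embryos alone, so for the first set the drug and the stage cannot be told apart.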

How the results depend on the processing

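Few calls of subunits held under every setting. Of 13 called values, 72 of 90 repeats under other settings and 44 of 108 with 1 library left out stayed called, and none changed sign. Of 141 uncalled values, 61 of 1007 and 27 of 1068 repeats became called. The cause was not tested. The numbers of members called are given with the share of all genes tested that was called in brackets. With 1 FPKM added before log2, they were 1 in polysome MII against GV (12.4% higher) and 4 in zygote M against zygote (6.73% lower). They were 1 in GV against zygote (7.48% lower), 5 in MII against zygote M (16.1% higher) and 4 in MII against two-cell M (32.4% higher). Between the fractions they were 0 in two-cell (9.77% lower) and 1 in two-cell M (8.70% lower). Outside polysomes they were 3 for the zygote M-phase (9.14% lower) and 1 for the two-cell M-phase (18.2% lower). For the two-cell interaction the number was 1 (3.55% higher). It was 5 in the difference of MII against GV and zygote M against zygote (16.9% higher). With 0.1 FPKM these were 3 in zygote M against zygote (4.74% lower), 5 in MII against zygote M (14.9% higher) and 2 in MII against two-cell M (44.9% higher). They were 2 between the two-cell fractions (9.18% lower), 2 and 1 outside polysomes (10.2% and 25.5% lower) and 4 in the difference (11.2% higher). With no minimum they were 0 in zygote M against zygote (1.80% lower), 1 in MII against zygote M (4.15% higher) and 0 in the difference (3.33% higher). They were 1, Cct6a, in two-cell M against two-cell (5.13% higher) and in MII against two-cell M (7.39% lower). Between the two-cell fractions Cct6a was called in place of Cct8 (2.46% lower). With a minimum of 1 FPKM they were 1 outside polysomes in two-cell M against two-cell (41.3% lower) and 1 in the difference (8.74% higher). Quantile normalization gave 2 in zygote M against zygote (3.99% lower) and 1, Cct8, for the two-cell M-phase (12.6% higher).

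Counts and shares of all genes tested are given here in the same way. Fits of the compared groups alone gave 2 in MII against GV (16.1% higher), 6 in zygote M against zygote (21.7% lower) and 1 in GV against zygote (14.2% lower). They gave 0 in GV against two-cell (14.7% higher), 6 in MII against zygote M (27.1% higher) and 2 in MII against two-cell M (39.1% higher). They gave 1 between the zygote fractions (4.47% higher) and 0 between the two-cell fractions (3.46% lower). Outside polysomes they gave 1 in MII against GV, with Cct3 lost (15.6% higher), and 1 in zygote M against zygote (8.79% lower). In the difference they gave 6 (28.2% higher). In the difference of zygote M against zygote and the two-cell change they gave 2, Cct3 and Cct5 (11.2% lower), with Tcp1 and Cct8 lost. Cct8 was lost there with no minimum too. With the letter as a replicate block, 0 were called in zygote M against zygote (Cct3 at -3.71, adjusted p = 0.102), where 1.59% of all genes tested were called lower. With that block 1 was called in MII against zygote M (8.60% higher) and 0 in the difference (4.22% higher). With the gradient as a replicate block 1, Cct8, was called in the two-cell interaction (3.08% higher). By the study's method both pools come from each gradient, and a letter names a replicate. Deviations of the fractions of one stage and letter correlated at -0.01 to 0.17 (median 0.08, 6 of 18 above 0.1), and those of other letters had a median of -0.03 (1 of 36 above 0.1). Same letters of other stages had a median of 0.02. With 1 library left out, calls ranged from 0 to 1 in zygote M against zygote, MII against zygote M, MII against two-cell M, the GV and two-cell M fractions, zygote M against zygote outside polysomes, the two-cell interaction and the first difference, from 0 to 2 in both two-cell comparisons in polysomes, the two-cell fractions and two-cell M against two-cell outside them, from 2 to 3 in MII against GV outside polysomes, and from 0 to 4 in the difference of zygote M against zygote and two-cell M against two-cell. Levels of a few fragments, as for Cct4 in zygote M, limit the precision.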
